A study of Capra hircus with 12 samples.

Results

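The microRNAs of the miR-181 family are listed under 5 names in the secondary hair follicles (SHFs) of cashmere goats. They were chosen by name, as every entry of miR-181a, miR-181b, miR-181c or miR-181d with any arm, and the 5 names that matched were miR-181b-5p, miR-181b-3p, miR-181c-5p, miR-181c-3p and miR-181d, of 376 miRNAs listed in all. No name of miR-181a, the other paralogue, was among the matches, so its level is not known here. The family total and shares below refer to these 5 names only. miR-1814 is a different miRNA and was left out.

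The 12 small RNA libraries came from Liaoning cashmere goats, all 1.5 years old, with 1 female and 1 male library in each of 6 months. February and March stand for telogen, the resting phase (4 libraries), May for early anagen and September for mid-anagen, the phases of growth (2 libraries each), and November and December for catagen, the phase of regression (4 libraries). SHFs produce the fine undercoat, and they were freed of epidermis, connective tissue and primary follicles by scalpel under a microscope. A dissected follicle still holds epithelial, dermal, vascular and immune cells. How the goats of a time point were combined into a library is not given in the sources used here, so p-values measure the spread between these libraries.

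A miRNA hairpin is cut into 2 arms, named 5p and 3p, of which one is usually kept and the other degraded. The 5p arms of the miR-181 family share their seed, the short stretch that pairs with target mRNAs, and can therefore repress overlapping sets of targets. The family is best known from lymphocytes, where it tunes the sensitivity of the T cell receptor, and it is also present in many other tissues. In RefSeq genes of goat assembly ARS1.2, which is not the assembly the authors used, MIR181D and MIR181C are direct neighbours between NANOS3 and ZSWIM4, and MIR23A lies beyond ZSWIM4. MIR181B lies elsewhere, inside the gene NR6A1 and a long noncoding RNA.

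Values are given on a pair of scales. TPM is the deposited count scaled to a common library total, with no length term. CPM after TMM divides the same counts by library totals adjusted with TMM factors, which correct for the composition of a library. The libraries held 3135292 to 5788032 counts. May had factors of 1.25 and 1.29, telogen of 1.01 to 1.23, September of 0.848 and 0.912 and catagen of 0.813 to 0.916, so the scales differ most where May is compared with later months. From May to catagen the median log2 fold change of 300 tested miRNAs was 0.08 after TMM and -0.47 with library totals.

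Among the 5 names listed, miR-181b-5p was the main member. It had a TPM of 231 ± 79.0 (SD, n = 12 libraries), which ranked 94 of 376 miRNAs by mean TPM, and its rank in single libraries lay between 85 and 105. miR-181d followed with a TPM of 24.1 ± 7.67 (rank 180) and miR-181c-3p with 9.97 ± 3.27 (rank 229). The remaining arms were close to the limit of detection, with 59 counts of miR-181c-5p and 49 counts of miR-181b-3p over all 12 libraries. The family thus spans more than 2 orders of magnitude in TPM, and 3 of its 5 names exceeded 5 CPM in at least 2 libraries and were tested. These 3 were above 5 CPM in all 12 libraries, and the others in none.

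miR-181b-5p made up 86.5% of the 14189 family counts (95% Wilson interval 85.9% to 87.0%), miR-181d 8.96% (8.51% to 9.45%) and miR-181c-3p 3.78% (3.48% to 4.10%). The share of miR-181b-5p in single libraries ranged from 82.9% to 88.9%. For telogen it averaged 86.8% ± 1.23 and for catagen 85.1% ± 1.69 (SD, n = 4 libraries each), and for May 86.9% ± 2.78 and for September 87.3% ± 0.672 (SD, n = 2 libraries each), with overlapping ranges of telogen and catagen. The share of miR-181d was 10.02% ± 0.764 in catagen and 8.68% ± 1.22 in telogen (SD, n = 4 libraries each), and these ranges overlapped too. Single libraries held between 6.93% and 10.9% of miR-181d and between 2.53% and 4.95% of miR-181c-3p. The share of miR-181c-3p was 4.85% in the female (3.89% to 6.04%) and 2.53% in the male May library (1.84% to 3.47%), with intervals that do not overlap. miR-181d and miR-181b-5p are near-identical in sequence and could share reads, and how such reads were assigned is not given in the sources used here. Wilson intervals cover counting error only, because the reads carry no molecular identifiers.

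The level of miR-181b-5p was highest in May and lowest in catagen. Its TPM was 317 in the female and 415 in the male May library. In telogen it was 229 and 288 in the female and male February libraries, and 194 and 261 in those of March. It was 220 and 215 in September, 172 and 140 in November and 179 and 147 in December. Both May libraries were above the other 10, as for 21.3% of all tested miRNAs, and the September libraries lay within the range of telogen. The 4 catagen libraries were below those of May (as for 53.3% of all tested), September (11%) and telogen (24%), pair by pair. The month means of TPM ran from 366 in May through 259 in February, 228 in March and 218 in September to 163 in December and 156 in November. The March libraries overlapped those of February and enclosed those of September, while both February libraries were above both September libraries, and December and November overlapped.

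After TMM the differences were smaller, and the month means ran from 288 CPM in May through 248 in September, 240 in February and 199.2 in March to 188 in November and 183 in December. The CPM of miR-181b-5p was 254 and 322 in the May libraries, between 186 and 252 in telogen, 259 and 236 in September and between 165 and 211 in catagen. The male May library remained the highest, but the female May library was below the female September library. May and catagen still did not overlap, whereas telogen and catagen did. From the lowest to the highest library the difference was 2.97-fold in TPM and 1.95-fold in CPM after TMM. Its coefficient of variation was 34.2% in TPM and 19.8% after TMM, where the medians of all tested miRNAs were 33.1% and 29.4%.

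**Figure D1:**
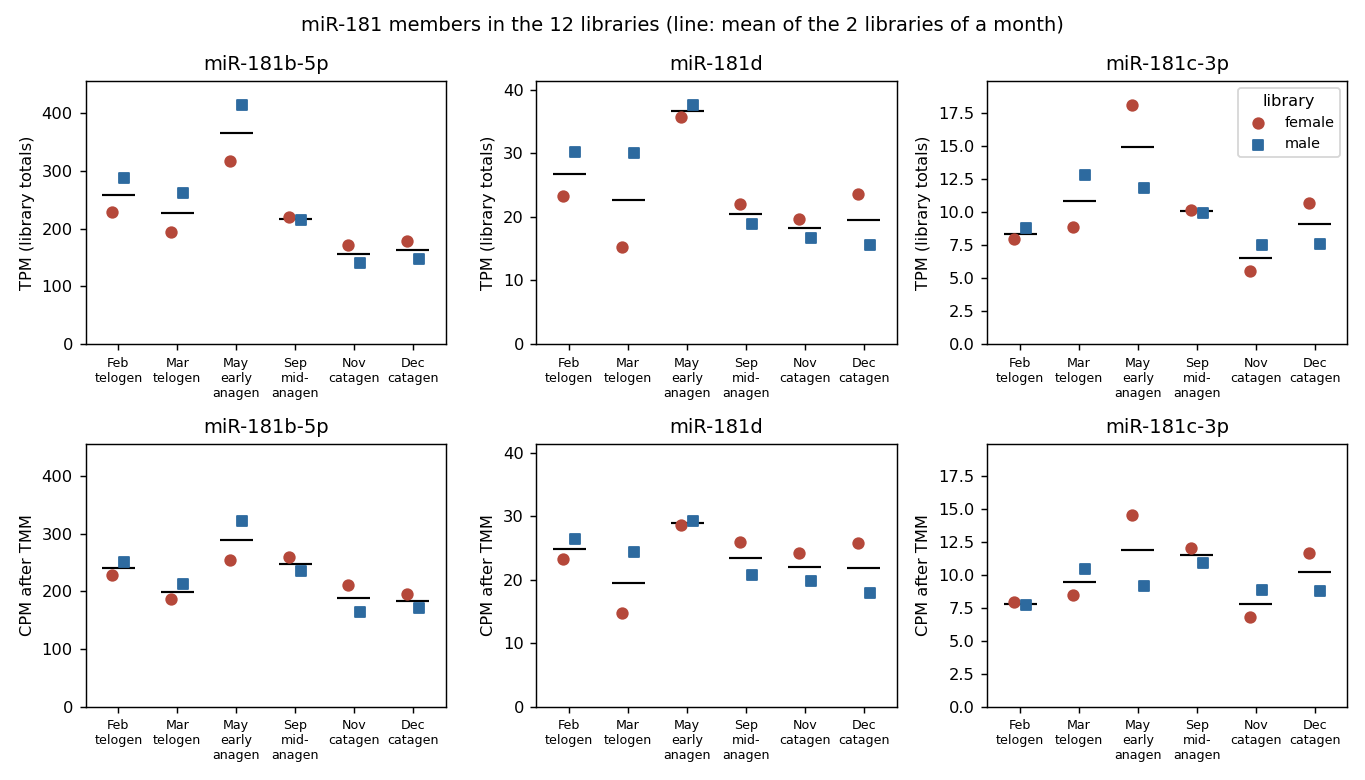
Levels of the 3 tested miR-181 members in the 12 libraries, by month and hair cycle phase, in TPM (upper row) and in CPM after TMM (lower row). Each point is 1 library (circles female, squares male) and each line the mean of the 2 libraries of a month. The TPM of miR-181b-5p is 317 and 415 in May and 140 to 179 in catagen, and the gap is smaller after TMM.

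The comparisons between phases ask which miRNAs change as the follicle passes from rest to growth and regression. Over 300 miRNAs, edgeR's quasi-likelihood fit gave a log2 fold change with its standard error (SE) and an adjusted p, and a miRNA was called at an adjusted p under 0.05 with at least a 2-fold change. No miR-181 member was called in any of the 6 comparisons, while 16.7% of all tested miRNAs were called from May to catagen, 18.3% from May to September, 10.7% from catagen to telogen, 9.33% from telogen to September, 2.33% from telogen to May and 0% from September to catagen. In the latter, edgeR gave 23 miRNAs an unadjusted p under 0.05, and DESeq2 called 1. The comparisons share libraries and are not independent of each other.

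miR-181b-5p passed the adjusted p without the fold limit in 1 of the 6 comparisons, and the other members in none. It fell from May to catagen by 0.64 on the log2 scale (SE 0.17, adjusted p = 0.0105 by edgeR). By the same rule 37% of all tested miRNAs changed from May to catagen, with 16.3% of all tested being lower in catagen, and 35% changed from catagen to telogen, 34% from May to September, 25.3% from telogen to September, 5.33% from telogen to May and 0% from September to catagen. Its adjusted p depended on the male May library. Without that library the log2 fold change was -0.47 (adjusted p = 0.151 by edgeR), and without the female May library it was -1.01 (adjusted p = 0.0103), past the 2-fold limit. In both cases May was left with 1 library, which is assumed to vary like the libraries of the other groups. The adjusted p stayed under 0.05 when any other single library was left out. With library totals the log2 fold change was -1.20 (adjusted p = 0.000531) and miR-181b-5p was called. Library totals called 82 of the 300 tested miRNAs, 10 of them higher in catagen. On that scale miR-181d (-0.96, adjusted p = 0.0124) and miR-181c-3p (-0.94, adjusted p = 0.0236) also passed the adjusted p, against the median of -0.47 over all tested miRNAs. In a model of only the May and catagen libraries, miR-181d passed as well (-0.59, adjusted p = 0.0357 by edgeR). That model called 61 of 286 miRNAs, 19 of them higher in catagen, with a median log2 fold change of -0.11.

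In the other comparisons miR-181b-5p did not pass. The fitted log2 value was 0.39 from telogen to May (SE 0.17, adjusted p = 0.153 by edgeR) and from September to catagen -0.42 (SE 0.17, adjusted p = 0.555). From May to September it was -0.22 (adjusted p = 0.412) after TMM but -0.75 (adjusted p = 0.0182) with library totals. The medians over all 300 tested miRNAs were 0.07 and -0.46 there, with 55 and 80 called. From catagen to telogen miR-181b-5p was at 0.24 (SE 0.14, adjusted p = 0.177) after TMM. It was 0.61 (adjusted p = 0.0103) with library totals and 0.34 (adjusted p = 0.0463) with DESeq2. The medians over all tested were 0.00, 0.35 and 0.09 in that order, with 32, 48 and 38 called. With 2 libraries each, May and September limit what these comparisons can show. Whether fewer cells that hold miR-181b-5p or less of it per cell lies behind a lower level cannot be told apart in whole follicles.

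miR-181d, which is listed without an arm, was also highest in May, at a TPM of 35.8 in the female and 37.6 in the male library. It was 23.3 and 30.2 in February, 15.3 and 30 in March, 22.0 and 19.0 in September, 19.7 and 16.8 in November and 23.6 and 15.5 in December (female and male). Both May libraries lay above the other 10 in TPM and after TMM, where they had a CPM of 28.7 and 29.3 and the highest other library 26.4, and after TMM 9.67% of all tested miRNAs were highest in both May libraries. The lowest library of all was that of female goats in March, while the male March library was among the highest outside May. The fitted log2 value of miR-181d was -0.40 from May to catagen (SE 0.25, adjusted p = 0.202 by edgeR), 0.39 from telogen to May (adjusted p = 0.308) and 0.02 from catagen to telogen (adjusted p = 0.945).

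miR-181c-3p was measured with 19 to 75 counts per library. Its TPM was 18.1 in the female and 11.8 in the male May library. It was 7.95 and 8.79 in February, 8.84 and 12.8 in March, 10.2 and 9.97 in September, 5.50 and 7.47 in November and 10.7 and 7.57 in December. The female May library stood above all others, and the male May library was below the male March library. No phase comparison passed for miR-181c-3p, with log2 fold changes from -0.39 (May to catagen, adjusted p = 0.255 by edgeR) to 0.47 (telogen to May, adjusted p = 0.263).

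Libraries of 2 phases were compared for overlap as a description, each time beside the share of all tested miRNAs that lay apart in the same direction. In TPM all 3 members were lower without overlap in catagen than in May (53.3% of all tested) and in September than in May (60%). After TMM, miR-181b-5p and miR-181d were lower in catagen than in May (29%), and miR-181d alone was lower in September than in May (36.7%). miR-181b-5p and miR-181d were higher without overlap in May than in telogen on both scales (26% of all tested in TPM, 18.3% after TMM). miR-181b-5p was lower without overlap in catagen than in September on both scales (11% and 10%). It was higher in telogen than in catagen in TPM (24%), and after TMM no member was apart there, while 30% of all tested were in either direction. Between telogen and September no member was apart in TPM (49.7% of all tested in either direction), and miR-181c-3p was higher in September after TMM (25.3%).

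The fitted values of all 3 members were below 0 from May to catagen and from May to September and above 0 from telogen to May. Of all tested miRNAs, 53% were above 0 from May to catagen, 53% from May to September and 49.3% from telogen to May. Among these values of the members, only that of miR-181b-5p from May to catagen passed the adjusted p. The members are not independent, since miR-181b-5p and miR-181d could share reads. The median log2 fold change of the members was -0.40 from May to catagen, -0.22 from May to September and 0.39 from telogen to May, beside 0.08, 0.07 and -0.00 over all tested miRNAs. In TPM the family total was 420 ± 65.7 for May and 249 ± 5.78 for September (SD, n = 2 libraries each), and 280 ± 48.2 for telogen and 187 ± 23.7 for catagen (SD, n = 4 libraries each). After TMM the total was 331 ± 44.8, 284 ± 21.2, 253 ± 31.3 and 218 ± 25.2 CPM in the same order. The May total was thus 2.24-fold that of catagen in TPM and 1.52-fold after TMM.

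**Figure D2:**
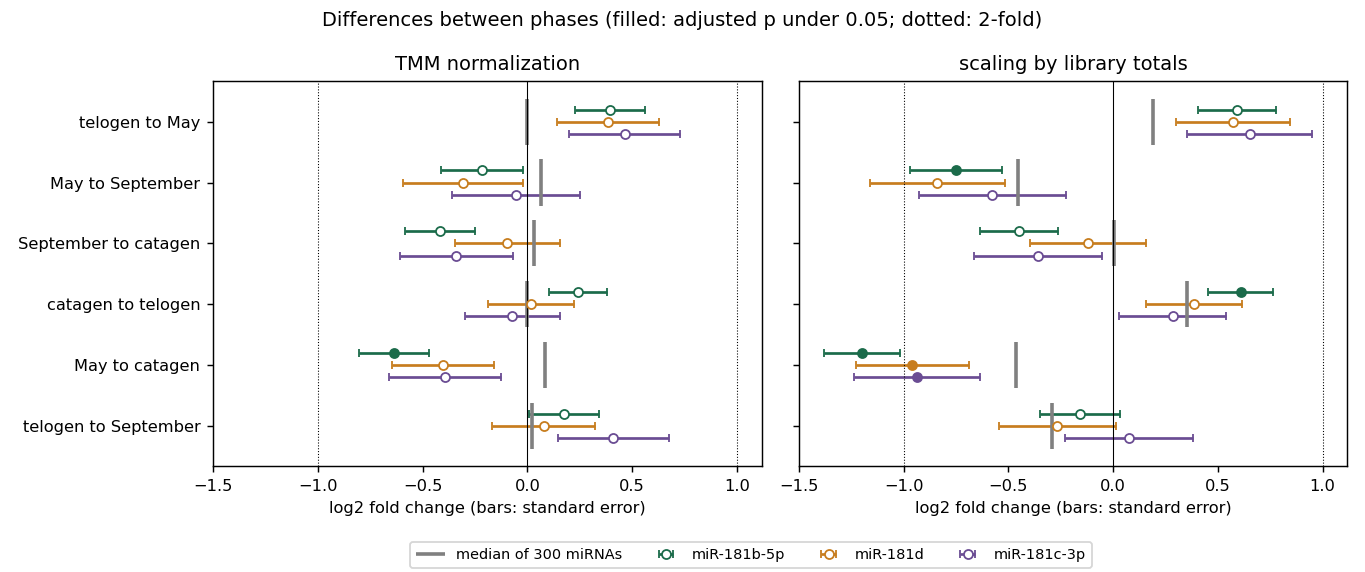
Log2 fold changes of the 3 tested members in the 6 comparisons of phases, after TMM (left) and with library totals (right), with standard errors as bars. Filled points have an adjusted p under 0.05 by edgeR, dotted lines mark 2-fold and grey bars are the median of the 300 tested miRNAs. miR-181b-5p from May to catagen is the filled point after TMM, at -0.64, and most points move with the grey bars when the scaling changes.

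Between adjacent months, in a fit with 6 groups of 2 libraries, no member was called in any of the 6 transitions, where 17.3% of all tested miRNAs were called from May to September, 1.33% from December to February and 0% in the other 4. In those 4, edgeR gave 52 miRNAs (March to May), 15 (February to March), 13 (September to November) and 10 (November to December) an unadjusted p under 0.05, and DESeq2 called 7 from March to May and 0 in the other 3. miR-181b-5p had a log2 fold change of 0.53 from March to May (SE 0.20, unadjusted p = 0.0236, adjusted p = 0.253 by edgeR), -0.40 from September to November (adjusted p = 0.969) and 0.39 from December to February (adjusted p = 0.288). From November to December it was -0.04 (adjusted p = 0.981). miR-181d from March to May depended on 1 library, since its log2 fold change of 0.57 (adjusted p = 0.339) became 1.13 without the male March library (adjusted p = 0.026 by edgeR) and was then called, as were 13.2% of all miRNAs tested. March was then left with 1 library, which is assumed to vary like those of the other months.

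The arms of the precursors miR-181b and miR-181c were counted in opposite proportions. For miR-181b, 12273 counts were of the 5p and 49 of the 3p arm, a 3p share of 0.398% (95% Wilson interval 0.301% to 0.525%). For miR-181c the 3p arm dominated, with 536 counts against 59 of the 5p arm, a 3p share of 90.1% (87.4% to 92.2%). The intervals are far apart, and in every one of the 12 libraries the 3p share was at most 0.669% for miR-181b and at least 80.4% for miR-181c. These intervals cover counting error only. How reads that match several members were assigned is not given, and its part in the arm shares was not tested. Among 112 precursors listed with both arms, 46 had more 3p than 5p counts.

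The minor arms were too rare for the test of arm ratios, which asked for a mean of at least 10 counts of each arm. Between 2 and 7 counts of miR-181b-3p were found in a library. miR-181c-5p had 8, 6, 11 and 8 counts in telogen, 6 and 2 in May, 4 and 2 in September, and 0, 1, 9 and 2 in the catagen libraries, each in the order female, male by month. The female November library, with 0 counts, allows up to 3 counts, a TPM of 0.868. The female December library, with 9 counts, was as high as telogen.

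The 3p share of miR-181c was lowest in telogen, where the 4 libraries lay between 80.4% and 86.9%. The share was 92.6% and 94.9% in May, 93.2% and 96.2% in September, and 100%, 96.7%, 84.2% and 95.1% in catagen. All telogen libraries were below the May and September libraries, and the female December library was within the telogen range. The shares rest on few 5p counts, and the Wilson intervals of telogen overlapped those of May and September. They were 68.2% to 88.7% in the female March library and 87.2% to 99.0% in the male September library. How many other precursors lay apart in this way is not given here. The mean share was 84.8% ± 3.04 in telogen and 94.0% ± 6.84 in catagen (SD, n = 4 libraries each), a difference that did not pass (exact permutation test, two-sided, p = 0.114, adjusted over both precursors 0.229, where the smallest p the design allows is 0.0286). For miR-181b the 3p share was 0.425% ± 0.0905 in telogen and 0.463% ± 0.181 in catagen (SD, n = 4 each, exact permutation test, two-sided, p = 0.714). These exact tests were added after the data were seen.

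**Figure D3:**
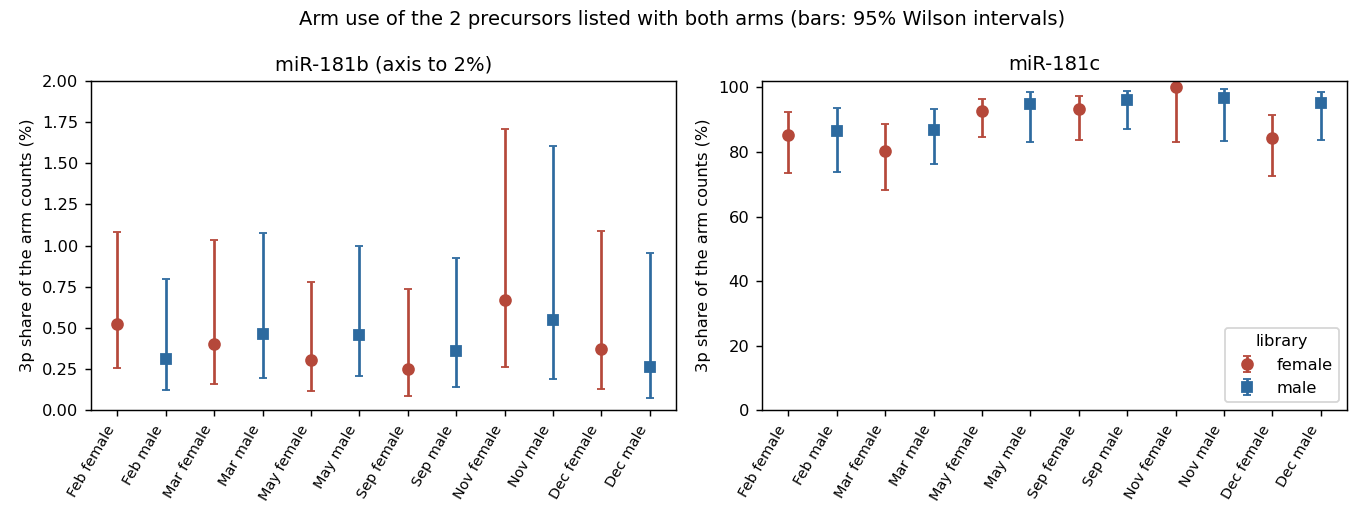
Share of the 3p arm among the arm counts of miR-181b (left, axis to 2%) and miR-181c (right) in each library, with 95% Wilson intervals as bars, circles for female and squares for male libraries. The miR-181b share is at most 0.669% and the miR-181c share lies between 80.4% and 100%, with the 4 telogen libraries among its lowest values.

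No member passed between female and male libraries, with month as a term. The log2 difference, male minus female, was -0.00 for miR-181b-5p (SE 0.12), -0.03 for miR-181d (SE 0.18) and -0.11 for miR-181c-3p (SE 0.19), with adjusted p of 0.994, 0.967 and 0.889 by edgeR. The sign for miR-181b-5p and miR-181d turned with library totals. No miRNA was called between the sexes by edgeR (0% of 300) or by DESeq2, and 34 had an unadjusted p under 0.05 by edgeR.

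This average held opposite values by month. miR-181b-5p was higher in the male library in February, March and May (log2 difference 0.14, 0.19 and 0.34) and higher in the female library in September, November and December (-0.14, -0.36 and -0.19). miR-181d had the same signs in all 6 months, with 0.72 in March as its largest difference and -0.51 in December. These names could share reads, so their signs are not independent. How many of all tested miRNAs had this order of signs is not given here. miR-181c-3p did not follow it, as its May difference was -0.65 and its November difference 0.37. The difference between the sexes in telogen, less that in catagen, was 0.82 for miR-181d (SE 0.36, unadjusted p = 0.0407, adjusted p = 0.191 by edgeR) and 0.44 for miR-181b-5p (SE 0.26, adjusted p = 0.354). Neither passed, and 3.33% of all tested miRNAs were called. For miR-181d the female libraries had a CPM of 23.2 and 14.7 in telogen and 24.2 and 25.7 in catagen, while the male libraries had 26.4 and 24.4 in telogen and 19.8 and 18.0 in catagen. After TMM the female libraries of miR-181d were thus lower in telogen and the male libraries higher, without overlap, while in TPM the female libraries of these phases overlapped. After TMM 8% of all tested miRNAs were likewise apart in both sexes and in opposite directions.

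**Figure D4:**
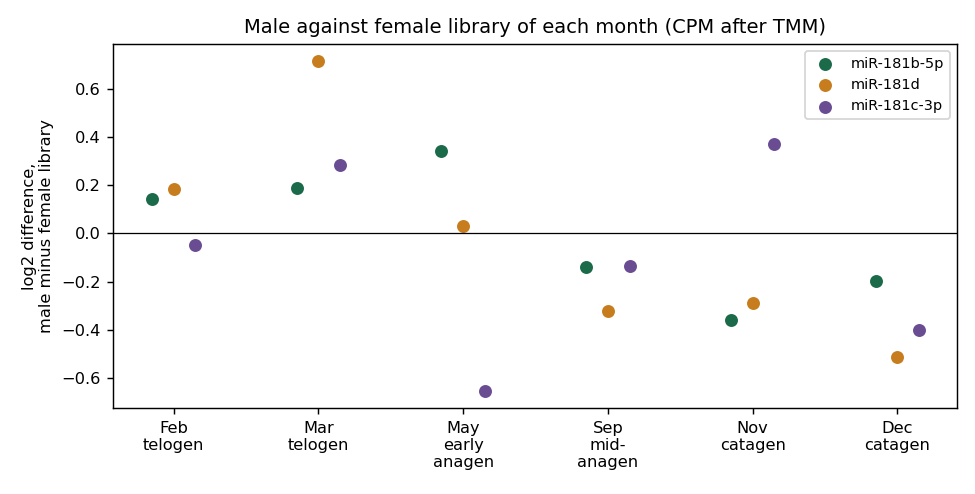
Log2 difference between the male and the female library of each month for the 3 tested members, in CPM after TMM with a prior count of 1, with 1 library of each sex a month and so no error bar. miR-181b-5p and miR-181d lie above 0 in February, March and May and below 0 in September, November and December.

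Across the 12 libraries, the levels of miR-181b-5p and miR-181d had a Pearson correlation of 0.74 of log2 CPM after TMM. Their genes lie apart, but the near-identical sequences could share reads. The part of shared reads in this correlation was not tested. miR-181d and miR-181c-3p, whose genes are neighbours, had a correlation of 0.33, and miR-181b-5p and miR-181c-3p one of 0.22. With 19 to 75 counts a library, miR-181c-3p carries more counting error than miR-181b-5p with 542 to 1326. The correlations are therefore not alike in depth. Among the 297 tested miRNAs outside the family, those most like miR-181b-5p were miR-200c (0.79), miR-421-3p (0.74), miR-217-5p (0.71), miR-216b (0.69) and miR-454-3p (0.68), with miR-200c also being a member of the epidermal list below and with a median of -0.05 over the 297. The same 5 were most like the family total, with 0.79 for miR-200c and 0.77 for miR-421-3p. The libraries of a phase are not independent points, and the correlations are descriptions of these 12 libraries without a test.

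Because the family is abundant in lymphocytes, miRNAs typical of other cells were looked at beside it. The leukocyte list (miR-142, miR-150, miR-155, miR-223, miR-146a and miR-146b, of which 5 were listed under 7 names) had a summed TPM of 16896 and 20756 in May, 12273 and 13126 in September, 5067 to 13355 in telogen and 8829 to 13996 in catagen, so both May libraries were above the others, as for miR-181b-5p. After TMM the May libraries had 13532 and 16132 CPM, within the range of catagen (10425 to 17217). Of its 7 names, 1 rose and 1 fell from May to catagen at an adjusted p under 0.05 (20.7% and 16.3% of all tested). From telogen to May 0 rose and 2 fell (2.33% and 3%), and from May to September 2 rose and 0 fell (18.7% and 15.3%). The median log2 fold change of the 7 was -0.31 from telogen to May, 0.34 from May to September and 0.28 from May to catagen. By these medians the names were lower in May, unlike their summed TPM. The part of these names in the level of miR-181b-5p was not tested.

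The erythrocyte list had a summed TPM of 5.41 to 26.4 in catagen and 24.6 and 45.9 in May, and 0 of its 2 names passed from May to catagen. The endothelial list (8819 to 11616 in catagen, 9177 and 9686 in May), the muscle list (2466 to 3553, and 2113 and 2745), the epidermal list (67759 to 94096, and 81375 and 88411) and the mesenchymal list (118318 to 148888, and 136171 and 140589) overlapped in TPM between catagen and May. After TMM these 4 lists were lower in May without overlap, at 7133 and 7757 CPM against 10495 to 13716 for the endothelial, 1692 and 2134 against 2852 to 4251 for the muscle, 63248 and 70806 against 78360 to 103752 for the epidermal and 109055 and 109271 against 136829 to 162466 for the mesenchymal list, where miR-181b-5p was higher in May. After TMM 32% of all tested miRNAs were higher in catagen than in May without overlap. The median log2 fold change of the names from May to catagen was 0.13 (endothelial), 0.10 (muscle), -0.08 (epidermal) and -0.06 (mesenchymal). The medians of the epidermal and mesenchymal names thus had the opposite sign to their sums. The part of these lists in the difference of miR-181b-5p was not tested. From May to catagen 1 of 2 endothelial, 1 of 5 muscle and 2 of 6 epidermal names rose and none fell at an adjusted p under 0.05, and 2 of 9 mesenchymal names rose and 3 fell, where 20.7% of all tested miRNAs rose and 16.3% fell. No name of any list was at 0 in a phase, and the epidermal and mesenchymal lists were the most abundant of the 6.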

How the data were processed

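Small RNA of secondary hair follicles was sequenced in 12 libraries, grouped by month, phase and sex as labelled. For each miRNA the authors deposited raw counts and TPM, made by trimming, alignment to the CHIR_2.0 assembly, miRNA identification (miREvo, mirDeep2) and quantification with Bowtie 0.12.9. Here TPM is the count scaled to the library's total, with no length term. Reads that match several near-identical members could be shifted between them, and how they were assigned is not given in the sources used here.

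The raw counts were tested with edgeR 4.0.16 in R 4.3.3 (TMM factors, quasi-likelihood F test). One model held all 12 libraries in 4 phases, and further models held the months, sex beside month, and sex within phase. A miRNA entered with more than 5 CPM in at least 2 libraries, and Benjamini-Hochberg adjustment ran over all miRNAs of a comparison. The SE was obtained from the log2 fold change and F. Precursor arm ratios were fitted by limma 3.58.1. The alternatives were DESeq2 1.42.0, RLE, library totals, other filters, no minimum fold, sex as a block, models of only the groups compared and each library left out. Correlations used log2 CPM with a prior count of 1.

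All 5 names of the family are described, together with the 5 miRNAs most correlated with miR-181b-5p or the family total and 6 lists of cell-type miRNAs (leukocyte, erythrocyte, endothelium, muscle, epidermis, mesenchyme). The family and the lists were chosen with earlier results of these data known. At a depth of 3135292 to 5788032 counts, 3 counts correspond to a TPM of 0.518 to 0.957. A chi-square of 70.0 to 667 per degree of freedom separated the libraries of each month, so they were not treated as repeat sequencing of the same library. Both were kept as replicates of a month, although they differ in sex. The models were tested on simulated counts with known changes. Mature sequences were not used here.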

Additional observations from a re-analysis of the deposited data

How the results depend on the processing

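The number of members called was the same under the alternatives run, apart from May to catagen, where 1 was called with library totals and 1 with no minimum fold, and 0 to 1 when single libraries were left out, and March to May, where 0 to 1 was called when single libraries were left out. The labels carry no replicate numbers, and libraries were blocked by sex instead, which changed no call of a member. Scaling decided the size of the family ratios. The log2 ratio of family totals was 1.16 in TPM and 0.60 after TMM for May against catagen (0.995 to 1.32 with single libraries left out), 0.58 and 0.21 for telogen against catagen (0.49 to 0.68), and 0.75 and 0.22 for May against September (0.58 to 0.90). Of all 300 tested miRNAs, 50 were called from May to catagen (27 of them higher in catagen), and 82 with library totals (10 higher). With library totals the calls from May to September went from 55 (29 higher) to 80 (9 higher), from catagen to telogen from 32 (19 higher) to 48 (43 higher) and from telogen to September from 28 (14 higher) to 42 (4 higher), and the 7 from telogen to May became 4, or 12 with DESeq2 and 15 with sex as a block. From catagen to telogen 17 of 222 tested were called with the filter in all 12 libraries. From telogen to September 18 of 284 tested were called in a model of only these groups. The mean share of miR-181b-5p was 86.3%, and 90.1% of the 5p arms alone, with miR-181d counted among them.

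Log2 fold changes near 0 changed sign. From catagen to telogen, miR-181c-3p was -0.07, and 0.0185 with RLE, 0.29 with library totals, 0.0129 with DESeq2 and 0.0608 with the filter in all 12 libraries (-0.18 to 0.0625 with single libraries left out). From telogen to September, miR-181d was 0.08, and -0.0152 with RLE, -0.27 with library totals, -0.0151 with DESeq2 and -0.0547 with that filter (-0.0922 to 0.23), and miR-181b-5p was 0.17, and -0.16 with library totals. From November to December, miR-181b-5p was -0.04, and 0.0655 with library totals (-0.21 to 0.0948). Between the sexes, miR-181b-5p was 0.0230 with RLE, 0.0912 with library totals, 0.0242 with DESeq2, 0.0951 with no filter and 0.0724 with the stricter filter (-0.0674 to 0.0713), and miR-181d was 0.0635, 0.0677 and 0.0444 with library totals, no filter and the stricter filter (-0.13 to 0.0727). With single libraries left out, the range was -0.37 to 0.0741 for miR-181c-3p from May to September, -0.25 to 0.0745 for miR-181d from September to catagen, -0.0841 to 0.21 for miR-181d from catagen to telogen, -0.19 to 0.11 for miR-181c-3p between the sexes and -0.20 to 0.54 for miR-181c-3p in the sex difference of telogen less catagen. The cause was not tested. Counting error limits miR-181b-3p and miR-181c-5p, at 0 to 11 counts a library.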
